A study of Mus musculus with 14 samples.

Results

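The interferon response genes described here are 34 mouse genes that interferons are known to raise. They were chosen by symbol and found in the count tables through their Ensembl IDs. All 34 were among the 55359 gene IDs and had at least 1 count, and 33 passed the filter on low counts, beside 20330 gene IDs in all. Zbp1, a sensor of nucleic acids in the Z form, was the member that did not pass, with 0 to 9 reads per library.

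Interferons are secreted proteins that warn cells of viral infection and act through paired receptors at the cell surface. Receptor-bound kinases phosphorylate Stat2, which joins Irf9 in a complex that binds a short promoter element, the interferon-stimulated response element, and switches on genes whose products block viral entry, translation and release. In the brain, microglia, vascular cells and the meninges are known to take part in this response, and a low basal level is present without infection.

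RNA was sequenced from the superior colliculus, a midbrain structure whose superficial layers receive retinal axons, of ICR/CD-1 mice at postnatal day 6. Between postnatal days 0 and 1 the pups, anaesthetised on ice, had each eyelid opened and received into the vitreous 0.3 to 0.5 µL of saline or of 50 mM carbenoxolone (cbx). Carbenoxolone blocks gap junctions and was used here to abolish retinal waves. The groups were saline superficial (n = 3), cbx superficial (n = 4), saline deep (n = 3) and cbx deep (n = 4), and each library pooled tissue of 3 brains. The p-values thus reflect how pools, not single pups, varied. All groups shared the injection, the anaesthesia and the strain, and no group without an eye injection was analysed here.

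The 14 libraries held 32004952 to 48776827 counted reads. CPM below are read counts scaled to the effective library size. Libraries with the same number in both layers of a treatment deviated together over 15168 genes with a mean of at least 1 CPM, at correlations of 0.182 to 0.394 in 7 of 7 pairs, and are called pools below. Whether a number stands for the same brains is not in the labels. Saline pool 1 and cbx pool 4 each stood apart in sex-linked RNA: Xist was at 0.572 and 1.94 CPM in saline pool 1 against 187 to 1127 CPM elsewhere, and Ddx3y was at 0 in both libraries of cbx pool 4 against 16.0 to 70.8 CPM elsewhere. Neuronal markers were high in every library (9 genes, summed level 5717 to 6867 CPM). Markers of meningeal fibroblasts were far higher in the superficial libraries (13 genes, 712 to 1846 CPM) than in the deep ones (53.6 to 99.4 CPM).

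Promoters were read from RefSeq's mouse table (GRCm38.p6), which held 26 of the 34 members. The core of the response element, GAAA-NN-GAAA on either strand within 250 bases before the start, was found in 13 of these 26 promoters (50.0%), in 19 of 44 further interferon-stimulated genes (43.2%) and in 936 of 27025 promoters in all (3.46%). The core of the gamma-activated sequence, TTCNNNGAA, which is its own reverse complement, was found in 6 of 26 (23.1%), 6 of 44 (13.6%) and 2197 of 27025 (8.13%), and 3 members held both cores. The stretches below belong to members on which the results turn: the first 6 stood high in 1 saline deep library, and the last 2 differed between the layers. Only promoters with the response element core are shown. Among other members that differed between the layers, Ifitm1 and Ifitm3 held neither core, while Oas1a, Gbp3 and Gbp7 held that of the response element. Each is written 5′ to 3′ on the gene's own strand, with bases of the response element core in capitals. A match describes the letters only.
Ifit1: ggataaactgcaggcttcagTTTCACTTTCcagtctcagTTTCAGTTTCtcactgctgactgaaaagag
Ifit3: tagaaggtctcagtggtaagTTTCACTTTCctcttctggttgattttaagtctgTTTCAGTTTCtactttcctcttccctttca
Ifit3b: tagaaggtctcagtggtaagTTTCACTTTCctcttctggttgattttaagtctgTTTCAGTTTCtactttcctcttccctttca
Isg15: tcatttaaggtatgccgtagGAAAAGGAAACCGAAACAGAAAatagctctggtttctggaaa
Rsad2: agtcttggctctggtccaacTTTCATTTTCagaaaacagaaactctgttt
Gbp2: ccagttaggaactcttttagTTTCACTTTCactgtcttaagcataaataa
Bst2: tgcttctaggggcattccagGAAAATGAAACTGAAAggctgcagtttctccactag
Ifitm2: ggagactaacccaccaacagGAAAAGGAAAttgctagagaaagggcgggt

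These stretches lie at chr19:34640765-34640833 (plus strand) for Ifit1, chr19:34583353-34583436 (plus) for Ifit3, chr19:34607749-34607832 (plus) for Ifit3b, chr4:156200855-156200916 (minus) for Isg15, chr12:26456543-26456592 (minus) for Rsad2, chr3:142620584-142620633 (plus) for Gbp2, chr8:71537567-71537622 (minus) for Bst2 and chr7:140955978-140956027 (minus) for Ifitm2. Isg15 held 3 overlapping or adjoining matches and Ifit1, Ifit3, Ifit3b and Bst2 held 2 each. The 84 bases shown for Ifit3 and Ifit3b had 0 mismatches. Both genes also share exon sequence, since 18.5% of the 150-base windows of Ifit3 and 16.0% of those of Ifit3b occur in the other gene, so their counts are not fully separate.

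Most members were expressed at a low level. Averaged over the 14 libraries, 4 of 34 members were at 10 CPM or more, 22 were at 1 CPM or more and 12 were below it. Compared per kilobase of exon, 2 of the 3 Ifitm membrane proteins and tetherin led: Ifitm2 was at 17.3 CPM per kb, Ifitm3 at 11.6 and Bst2, which tethers budding virions to the cell, at 4.31. Ifit2, an RNA-binding effector, was at 3.83, Lgals3bp, a secreted galectin-binding glycoprotein, at 2.91, and the signalling factors Stat2 and Irf9 were at 2.88 and 2.38 CPM per kb. The third Ifitm gene, Ifitm1, was at 2.58 CPM per kb. Several classical effectors were among the lowest, with Rsad2 (viperin) at 0.185, Ifit1 at 0.149, Mx1, a dynamin-like GTPase, at 0.120 and Zbp1 at 0.0241 CPM per kb.

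The members with the highest CPM, Stat2 and Ifit2, did not pass between any groups. Ifit2 was at 14.9, 15.1 and 13.6 CPM in saline superficial pools 1 to 3 and 14.6, 14.8, 14.7 and 16.9 CPM in cbx superficial pools 1 to 4. In the deep layer it was at 17.3, 14.5 and 13.2 CPM after saline and 16.2, 14.7, 14.8 and 15.1 CPM after cbx. Stat2 was at 18.9, 18.9 and 17.9 CPM in the saline superficial and 13.1, 15.8, 16.0 and 19.4 CPM in the cbx superficial libraries, and at 16.8, 15.9 and 16.9 CPM and 15.4, 20.01, 16.6 and 17.3 CPM in the saline and cbx deep ones. Over the 5 comparisons the largest log2 difference was 0.07 for Ifit2 and -0.27 for Stat2.

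The interferon ligands themselves were barely detected. Of 21 ligand genes, 7 had any read, 17 reads were counted in all, and 0 to 5 fell in any library. The 5 reads of saline deep pool 1 all fell on Ifna13. None of the 21 passed the filter on low counts. All 6 receptor genes were measured.

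Single pools carried much of the variation among members. Saline deep pool 1 was the highest of its 3 libraries for 22 of 33 members (66.7%), while it was the highest for 36.2% of all genes tested. Its median ratio to the mean log2 CPM of the other saline deep libraries was 0.62 on the log2 scale over the members and 0.012 over all genes. By that ratio, computed with a prior count of 2, 13 members were more than 2-fold above the others there, against 2.57% of all genes: Gbp2, Ifit1, Ifit3, Ifit3b, Irf7, Isg15, Mx1, Mx2, Oasl2, Parp14, Rsad2, Trim30a and Usp18. These 13 were singled out after their values were seen.

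The largest excesses there were in virus-restricting effectors. Ifit1, which binds viral RNA ends, had 56 reads in saline deep pool 1, 4 in pool 2 and 0 in pool 3, where 0 reads allow up to 0.0826 CPM for counting error only. Ifit3, its binding partner, was at 3.88, 0.453 and 0.523 CPM in saline deep pools 1 to 3, and Rsad2 was at 3.56, 0.423 and 0.551 CPM. By the same ratio pool 1 stood 7.26-fold above the others for Ifit3 and 6.72-fold above them for Rsad2. Mx1 was at 2.26, 0.363 and 0.275 CPM and Gbp2, a guanylate-binding protein, at 1.91, 0.332 and 0.386 CPM in the same order. Pool 1 was again the single high library, at 6.23-fold for Mx1 and 4.75-fold for Gbp2. Not all members took part: pool 1 was not the highest saline deep library for Bst2 (2.35, 2.36 and 2.37 CPM), Ifitm2, Lgals3bp, Stat2, Irf1, Oas1a, Oas2, Gbp7, Dhx58, Xaf1 or Psmb9. Of the 13 genes, 9 had a promoter in the table and 7 of these held the response element core, while Irf7 and Oasl2 did not. Among the other tested members 6 of 17 promoters held it. Since the 13 were picked by these values, the motif counts were not tested and are a description only.

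**Figure D1:**
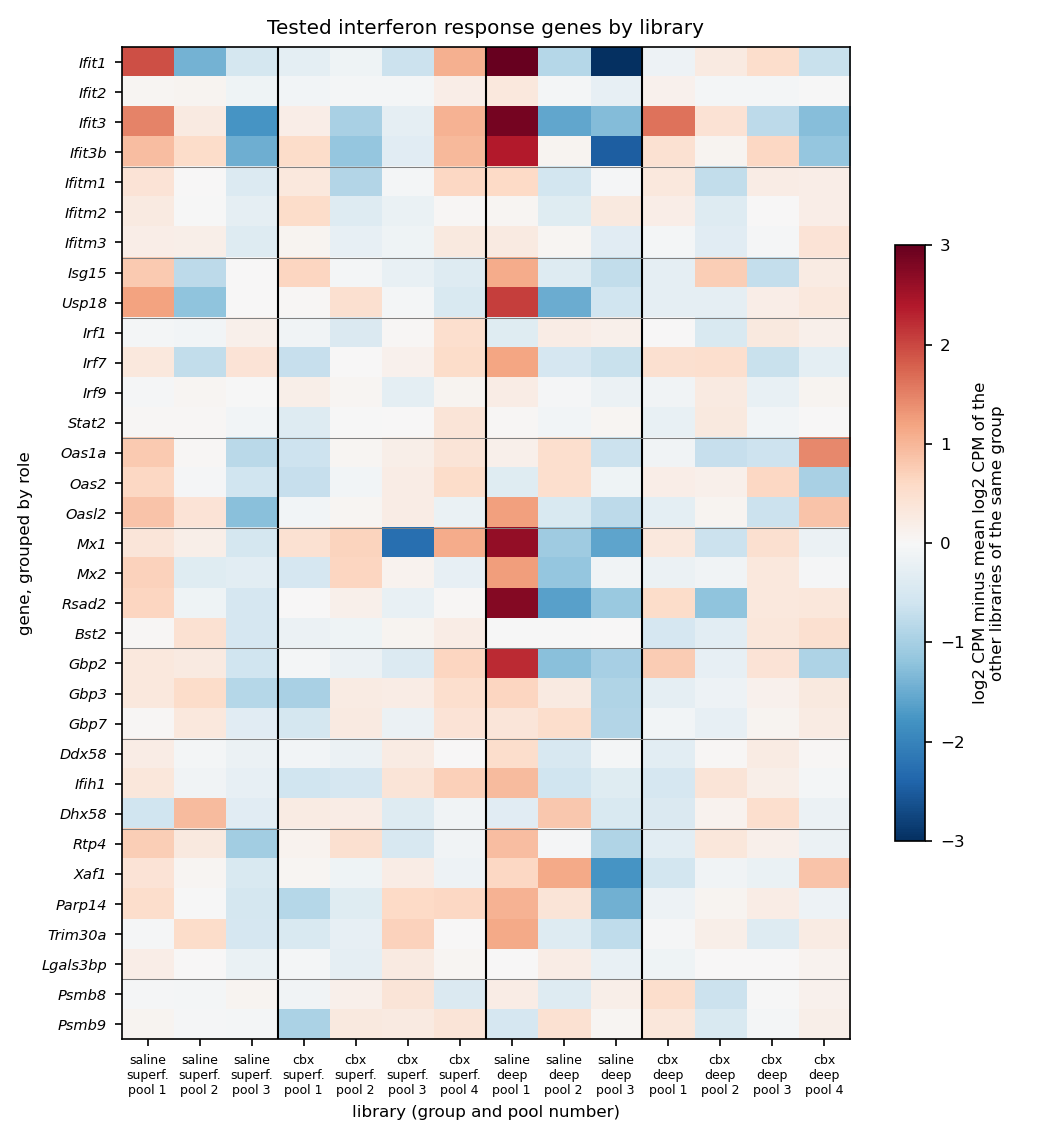
Heat map of the 33 tested interferon response genes (rows, by role) in 14 libraries (columns, by group and pool). Colour is log2 CPM minus the mean log2 CPM of the other libraries of the same group. Stronger deviations saturate at the ends of the scale. Saline deep pool 1 stands out from the other saline deep libraries, while differences between groups cannot be seen on this scale.

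The same pool was high in the superficial layer, to a lesser degree. Saline superficial pool 1 was the highest of 3 for 23 of 33 members (all genes 37.9%), with a median log2 ratio of 0.33, and 3 members were more than 2-fold above the others (all genes 3.14%). Pool 1 was the highest in both layers for 16 members, among them Ifit1, Ifit3, Isg15, Mx1, Rsad2, Gbp2 and Usp18. Saline pool 3 was the lowest for 18 members in the deep and 24 in the superficial layer (all genes 34.2% and 38.7%). Among cbx libraries, superficial pool 4 was the highest of 4 for 19 of 33 members (all genes 25.3%), with a median log2 ratio of 0.28, whereas its deep library was the highest for 11 (all genes 21.6%) and had a median of 0.11. A list of 56 further interferon-stimulated genes, of which 46 were tested, showed saline pool 1 as the highest library for 26 in the deep and 29 in the superficial layer (all genes 36.2% and 37.9%).

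Cell type markers were compared in the same libraries. In saline deep pool 1 the summed microglial markers (14 genes) were at 541 CPM against 512 and 506 CPM in the other saline deep libraries. Border macrophage markers (8 genes) were at 10.1 CPM against 10.7 and 8.15 CPM, and meningeal fibroblast markers at 85.8 CPM against 99.4 and 83.0 CPM. Astrocyte markers (8 genes) were at 1966 CPM against 1720 and 1664 CPM, and pool 1 was the highest for 7 of the 8. Neutrophil and monocyte markers (9 genes, 4 of them at 0 there) were at 0.763 CPM against 1.99 and 1.76 CPM. In the superficial layer several marker lists moved with the members, though not every list did so in both saline pool 1 and cbx pool 4. Meningeal fibroblast markers were highest in saline pool 1 (1063 CPM against 853 and 712 CPM) and in cbx pool 4 (1846 CPM against 945 to 1357 CPM). Border macrophage markers were at 89.6 CPM in saline superficial pool 1 against 70.3 and 51.4 CPM, and at 173 CPM in cbx superficial pool 4 against 76.0 to 143 CPM. Neutrophil and monocyte markers were at 3.83 CPM in saline superficial pool 1 against 1.135 and 1.82 CPM, with pool 1 the highest for 6 of 6 tested. In cbx superficial pool 4 they were at 8.54 CPM, within the group's range of 4.32 to 11.4 CPM, and pool 4 was the highest for 0 of 6. Microglial and astrocyte markers were at 403 and 2392 CPM in cbx superficial pool 4, the lowest sums of that group. The part of these lists in the members' levels was not tested. These are also the pools that stood apart in Xist and Ddx3y, but in opposite directions. Saline pool 1 had little Xist (0.572 and 1.94 CPM), and cbx pool 4 had Ddx3y at 0. The part of sex was not tested.

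**Figure D2:**
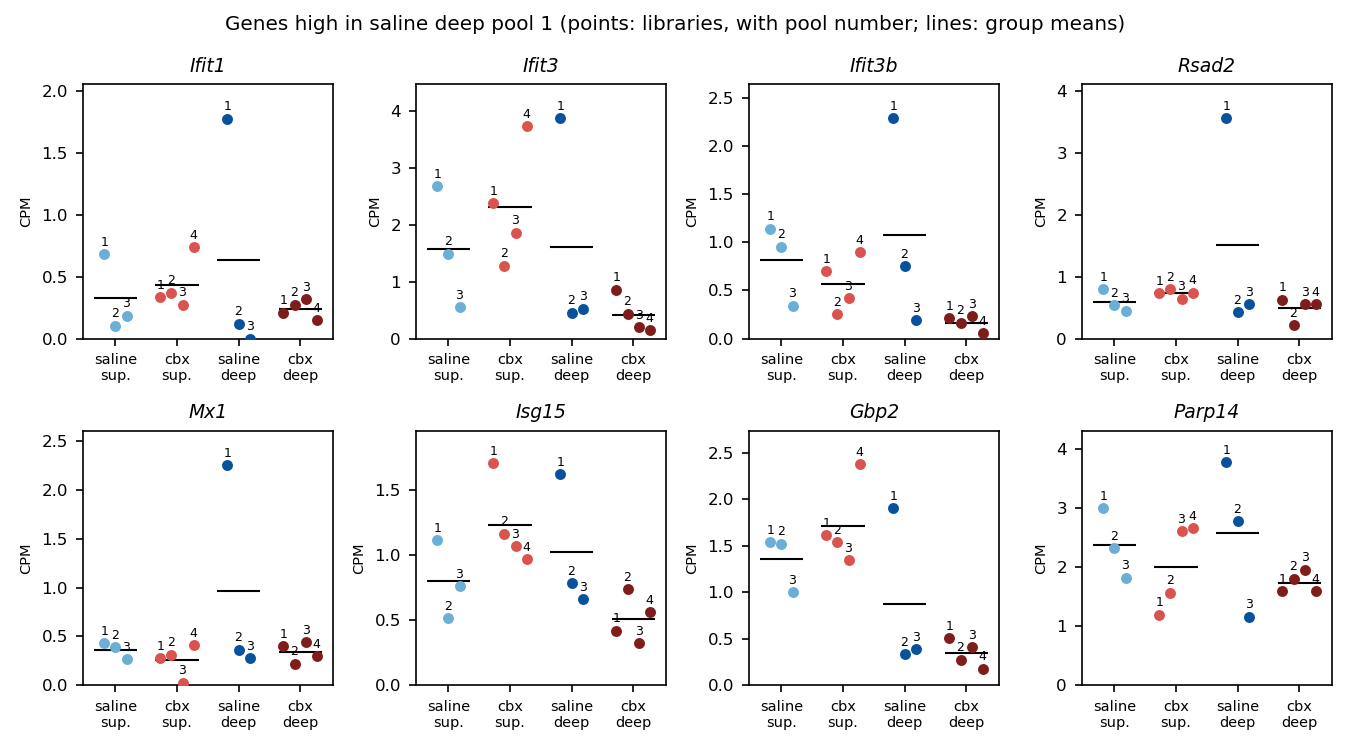
CPM of 8 interferon response genes in each library (points, 1 per pool, by group of layer and treatment). Saline deep pool 1 lies well above the other deep libraries for Ifit3 (3.88 CPM), Rsad2 (3.56 CPM) and Mx1 (2.26 CPM).

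The first comparison asked what cbx at the eye changed in the superficial layer, the target of the retinal axons. Of 33 members, 1 was higher and 0 were lower after cbx, where 4.33% of all genes tested were called and 2.68% were higher. The gene was Ifitm1, which hinders fusion of enveloped viruses at the cell surface. It was at 3.26, 2.71 and 2.21 CPM in saline pools 1 to 3 and 7.35, 3.95, 6.04 and 8.64 CPM in cbx pools 1 to 4. All cbx libraries lay above all saline libraries, the difference was 1.25 on the log2 scale (SE 0.25, 2.39-fold), and edgeR's adjusted p was 0.0107. The call was lost without saline superficial pool 2 or pool 3 and without saline pool 1 and cbx pool 4 together (adjusted p up to 0.0776), while the difference stayed between 1.08 and 1.43.

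Without passing, 3 further members had cbx libraries that all lay above the saline ones, so that 4 of 33 members did not overlap in this direction against 8.96% of all genes. Ifitm3, the best known restriction factor of the family, was at 11.9, 11.8 and 9.09 CPM after saline and 15.6, 13.2, 14.1 and 17.4 CPM after cbx (log2 difference 0.46, SE 0.14, edgeR adjusted p = 0.0641). Bst2 was at 4.40, 5.34 and 3.42 CPM and 5.74, 5.86, 6.58 and 7.05 CPM (0.52, SE 0.19, adjusted p = 0.115). Lgals3bp was at 8.60, 7.84 and 7.14 CPM and 9.95, 8.88, 11.8 and 10.5 CPM (0.39, SE 0.12, adjusted p = 0.0701). Ifitm2 overlapped, at 15.5, 13.5 and 12.01 CPM and 22.7, 13.8, 15.3 and 17.3 CPM (0.34, SE 0.16, adjusted p = 0.223), and 40.9% of its exon bases are shared with an overlapping gene model, Gm45717.

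The members leaned to higher values as a list. Their differences were positive for 28 of 33, against 51.5% of all genes, and the median was 0.34 against 0.0094 over all genes. By role, the median was 0.46 for the Ifitm proteins, 0.46 for Isg15 and its protease Usp18, 0.34 for the guanylate-binding proteins, 0.33 for the OAS family and -0.051 for the transcription factors Irf1, Irf7, Irf9 and Stat2. With 1 library left out the median ran from 0.15 (without saline superficial pool 3, 26 of 33 positive) to 0.44, and without saline pool 1 and cbx pool 4 it was 0.36, with 28 positive. Members are not replicates and the median carries no test. Over the same libraries, 7 of 14 microglial markers rose (summed level 403 to 429 CPM after cbx, 314 to 341 CPM after saline) and 7 of 13 meningeal fibroblast markers rose (945 to 1846 CPM and 712 to 1063 CPM). Border macrophage markers summed to 76.0 to 173 CPM after cbx and 51.4 to 89.6 CPM after saline, with 1 of 8 passing, and neutrophil and monocyte markers to 4.32 to 11.4 CPM and 1.135 to 3.83 CPM, with 1 of 6 tested passing. Their part in the members' differences was not tested, and in bulk tissue more cells of a type and more RNA per cell cannot be told apart.

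The next comparison asked the same of the deep layer. Of 33 members, 0 were higher and 1 was lower after cbx, where 1.83% of all genes were called and 0.777% were lower. Lgals3bp fell, from 8.74, 9.70 and 7.85 CPM in saline pools 1 to 3 to 5.80, 6.22, 6.24 and 6.57 CPM in cbx pools 1 to 4. The groups did not overlap, which held for 1 of 33 members and 8.05% of all genes in this direction, and the difference was -0.50 (SE 0.12, edgeR adjusted p = 0.0403). This call was lost in 12 of 17 alternatives, including each of the 7 in which 1 library was left out, with a difference between -0.57 and -0.42 throughout. Lgals3bp therefore had differences of opposite sign in the layers, 0.39 and -0.50.

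A further 6 members had an unadjusted p under 0.05 in the deep layer without passing, all with lower means after cbx: Ifit3 (log2 difference -1.89), Ifit3b (-2.64), Isg15 (-1.0), Mx1 (-1.49), Rsad2 (-1.60) and Gbp2 (-1.31). Together with Lgals3bp this made 7 of 33 members, against 15.3% of all genes. The cbx deep libraries did not lie apart from saline for these 6. Ifit3 was at 0.859, 0.437, 0.204 and 0.147 CPM after cbx, which spans the 0.453 and 0.523 CPM of saline pools 2 and 3, and Rsad2 was at 0.629, 0.218, 0.554 and 0.560 CPM, beside 0.423 and 0.551 CPM in those pools. Isg15, the ubiquitin-like modifier, was at 1.62, 0.785 and 0.661 CPM after saline and 0.419, 0.737, 0.321 and 0.560 CPM after cbx. Ifit3b was at 2.29, 0.755 and 0.193 CPM after saline and 0.210, 0.164, 0.233 and 0.0589 CPM after cbx, so saline pools 1 and 2 lay above every cbx library. With 1 library left out, Ifit3b did not pass in 6 of 7 fits (edgeR adjusted p 0.0422 to 0.409).

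To unequal degrees, the differences of these 6 depended on saline deep pool 1. Without it the difference was 0.084 for Mx1, 0.011 for Rsad2, -0.056 for Gbp2, -0.19 for Ifit3, -0.51 for Isg15 and -1.47 for Ifit3b, and the edgeR adjusted p was 0.409 or more for all 6. Over the members the median was -0.19 with all libraries, with 26 of 33 differences negative (of all genes 51.5% were positive), and 0.020 without pool 1, with 18 positive and 15 negative. Without saline pool 1 and cbx pool 4 it was -0.041, with 16 positive and 17 negative. The median over all genes was 0.0069. Lgals3bp kept its difference of -0.50 without saline deep pool 1 (edgeR adjusted p = 0.124). Most marker lists also leaned lower after cbx in the deep layer. Microglial markers summed to 453 to 503 CPM against 506 to 541 CPM after saline (10 of 14 differences negative). Meningeal fibroblast markers summed to 53.6 to 71.1 CPM against 83.0 to 99.4 CPM (11 of 13 negative). In both lists 5 genes had cbx libraries all below the saline ones (all genes 8.05%) and 0 passed. Astrocyte markers summed to 1375 to 1638 CPM against 1664 to 1966 CPM (7 of 8 negative, 1 called lower). Border macrophage markers were negative for 7 of 8, endothelial for 8 of 10, and pericyte and smooth muscle for 6 of 7. Red blood cell markers were positive for 4 of 7. The part of these lists in the members' differences was not tested.

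**Figure D3:**
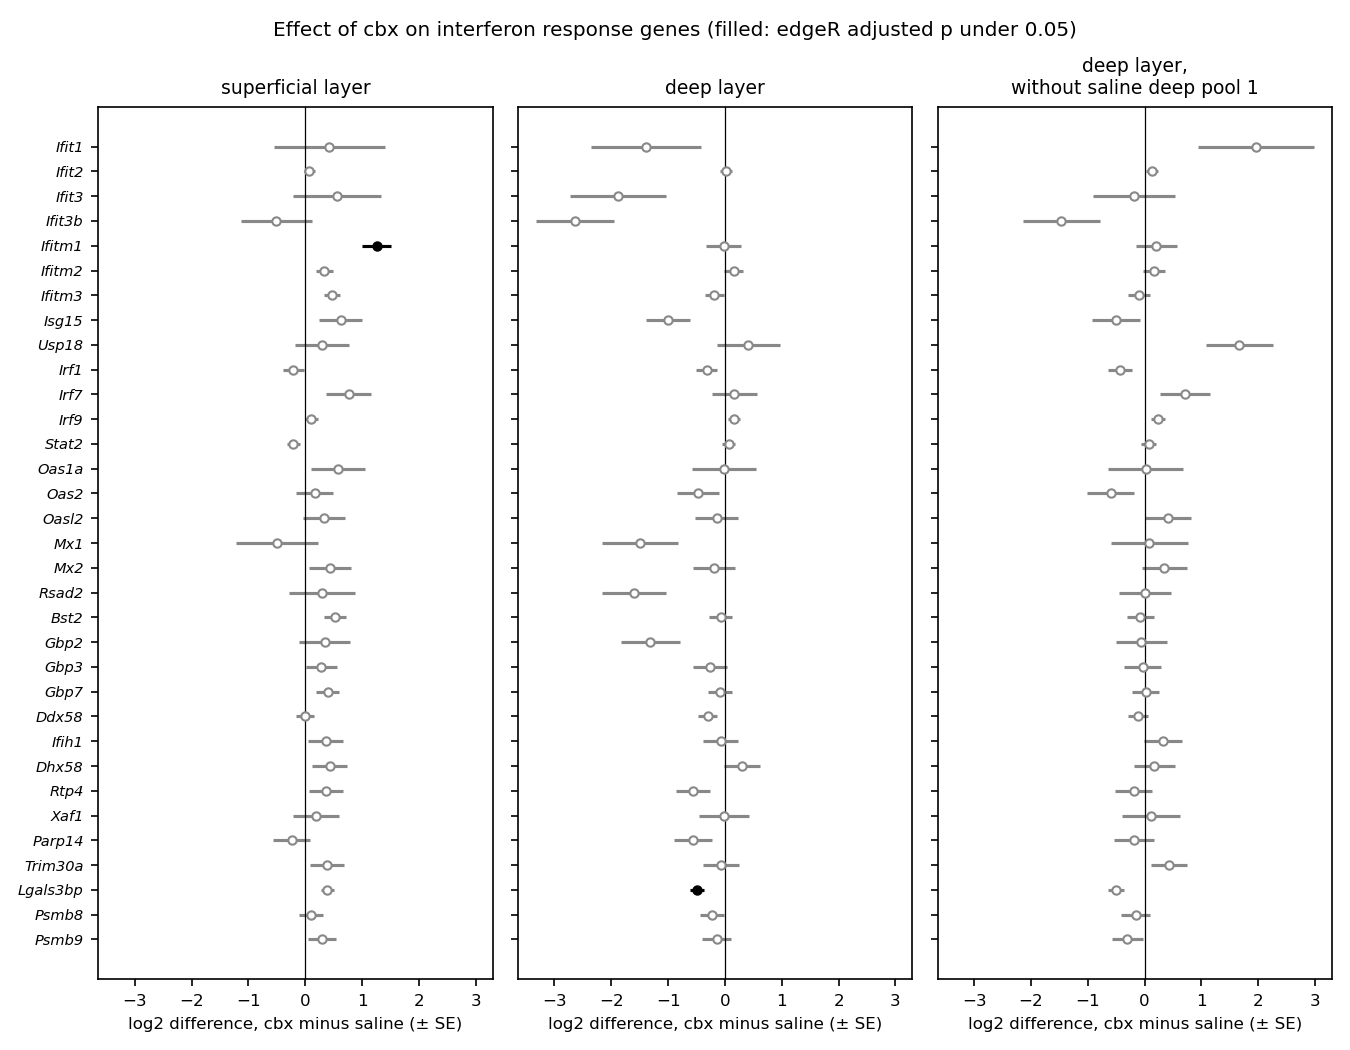
Log2 difference of cbx against saline with its SE for each of 33 members in the superficial layer, the deep layer, and the deep layer without saline pool 1; filled points passed at an adjusted p under 0.05. Most superficial points lie above 0 (28 of 33), most deep points below it (26 of 33), and the latter move to both sides of 0 without saline deep pool 1 (18 positive, 15 negative).

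The layers were compared within each treatment. In saline animals 4 of 33 members were higher in the superficial layer and 0 were lower, where 18.4% of all genes were called and 9.67% were higher. They were the 3 Ifitm genes and Bst2. The log2 differences were 1.81 (SE 0.31) for Ifitm1, 1.07 (SE 0.17) for Ifitm2, 2.06 (SE 0.17) for Ifitm3 and 0.89 (SE 0.21) for Bst2, with edgeR adjusted p = 2.2e-04, 1.5e-04, 2.6e-08 and 0.00444. Ifitm3 was at 9.09 to 11.9 CPM in saline superficial and 2.96, 2.69 and 2.23 CPM in saline deep pools 1 to 3. Ifitm1 was at 1.02, 0.574 and 0.744 CPM and Ifitm2 at 6.61, 5.47 and 7.41 CPM in these deep libraries. The superficial values given above lay above every deep value for all 4 genes, and all 4 calls were kept in all 16 alternatives.

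Non-overlapping libraries were seen for 7 of 33 members, all higher in the superficial layer, against 20.2% of all genes in that direction. The other 3 were Stat2 (log2 difference 0.17), Oas1a (1.26) and Oas2 (0.88), and none of these passed. Over the members 17 differences were positive (all genes 55.5%) and 16 negative, with a median of 0.11 against 0.042 over all genes. Without saline deep pool 3 this median was -0.070. Rsad2 stood at -1.33 with all libraries (edgeR adjusted p = 0.150, SE 0.60) and at 0.29 without saline deep pool 1. Without that library Usp18 and Gbp2 passed as well, at 2.68 (SE 0.59, adjusted p = 0.0037) and 1.90 (SE 0.45, adjusted p = 0.00596). With all libraries they were at 1.42 and 0.64 (adjusted p = 0.0896 and 0.447). With the pool as a block, Usp18 had an adjusted p of 0.0183.

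**Figure D4:**
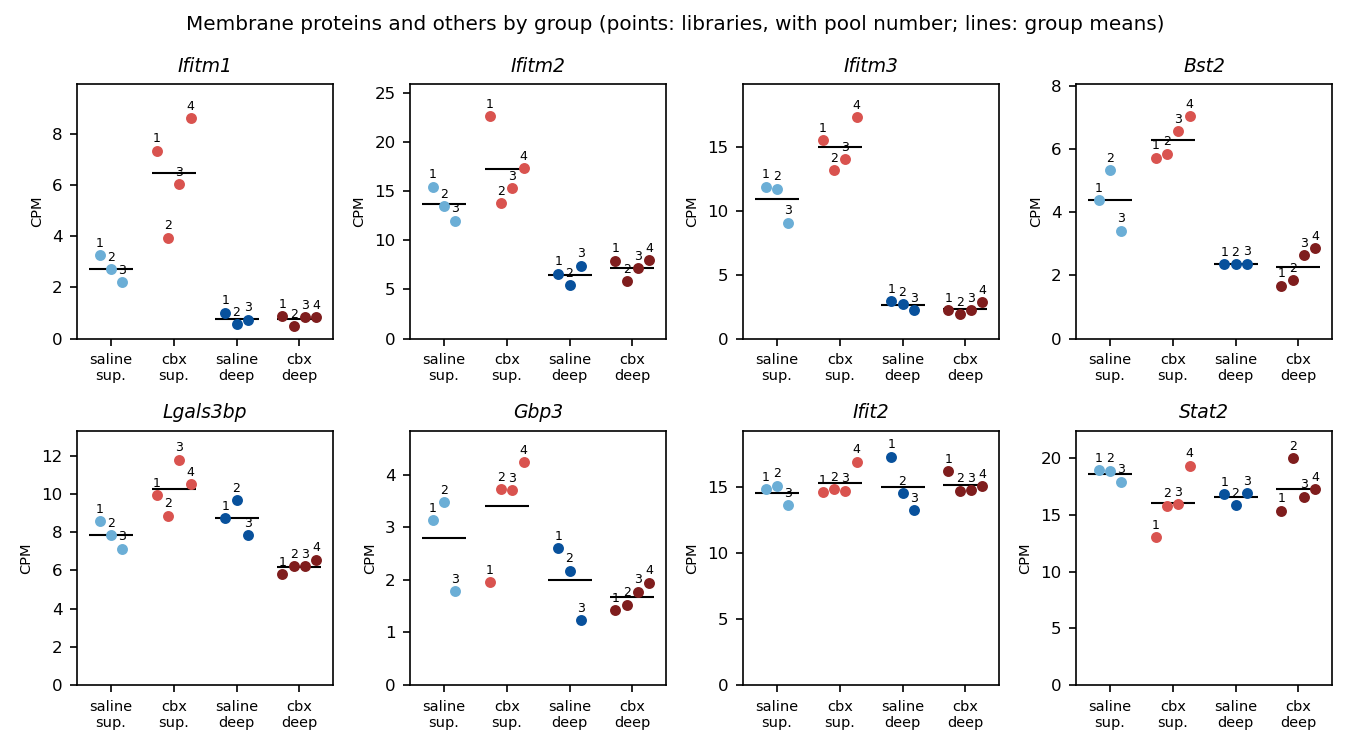
CPM in each library (points, 1 per pool) of 8 interferon response genes in the 4 groups of layer and treatment. For Ifitm1, Ifitm2, Ifitm3 and Bst2 all superficial libraries lie above all deep libraries, while Ifit2 and Stat2 differ little between the groups.

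After cbx, 14 of 33 members were higher in the superficial layer and 0 were lower, where 32.2% of all genes were called and 18.1% were higher. Libraries did not overlap for 18 members, all higher in the superficial layer, against 16.7% of all genes. Of the differences 31 of 33 were positive (all genes 52.2%), and the median was 0.64 against 0.018 over all genes. Several of the 14 calls were large: Ifitm1 was higher by 3.08 on the log2 scale (SE 0.26), Ifitm3 by 2.71 (SE 0.15), Ifit3 by 2.42 (SE 0.79) and Gbp2 by 2.30 (SE 0.47). The edgeR adjusted p was 1.9e-08 for Ifitm1, 3.9e-11 for Ifitm3, 0.0347 for Ifit3 and 8.5e-04 for Gbp2.

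The Ifitm proteins and tetherin again had separate libraries in the layers. In cbx deep pools 1 to 4 Ifitm1 was at 0.880, 0.491, 0.846 and 0.825 CPM, Ifitm2 at 7.92, 5.84, 7.20 and 7.96 CPM and Ifitm3 at 2.22, 1.91, 2.25 and 2.83 CPM. Bst2 was at 1.68, 1.86, 2.65 and 2.86 CPM there. Each superficial library given above was higher than each of these, and the differences of Ifitm2 and Bst2 were 1.25 (SE 0.15) and 1.49 (SE 0.18), with edgeR adjusted p = 1.9e-06 and 2.5e-06.

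Among the enzymes and RNA-binding effectors, Ifit3 was at 2.38, 1.28, 1.86 and 3.73 CPM in cbx superficial pools 1 to 4, above the 0.147 to 0.859 CPM of the cbx deep ones. Isg15 was at 1.71, 1.17, 1.07 and 0.971 CPM in the same superficial libraries (log2 difference 1.26, SE 0.36, edgeR adjusted p = 0.0111). Usp18, which strips ISG15 from proteins and dampens the receptor, was at 1.04, 1.34, 0.994 and 0.792 CPM against 0.356, 0.355, 0.467 and 0.501 CPM (1.31, SE 0.46, adjusted p = 0.0360). The calls of Ifit3 and Usp18 were lost in 5 and 6 of 18 alternatives, in each case by leaving out 1 cbx library. Saline values of these genes overlapped between the layers: Ifit3 was at 2.68, 1.496 and 0.553 CPM, Isg15 at 1.11, 0.516 and 0.764 CPM and Usp18 at 1.37, 0.413 and 0.764 CPM in saline superficial pools 1 to 3, and Usp18 at 0.699, 0.0906 and 0.165 CPM in the deep ones.

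The OAS enzymes make oligoadenylates that activate RNase L. Oas1a was at 0.519, 0.768, 0.820 and 0.920 CPM in cbx superficial and 0.168, 0.109, 0.117 and 0.442 CPM in cbx deep pools (1.86, SE 0.47, edgeR adjusted p = 0.00476), and 32.4% of its 150-base windows occur in Oas1g, so its reads may be shared. Oas2 was at 0.854, 1.19, 1.42 and 1.69 CPM and 0.482, 0.464, 0.612 and 0.236 CPM (1.52, SE 0.33, adjusted p = 0.00134). After saline, Oas1a was at 0.714, 0.490 and 0.316 CPM in the superficial and 0.223, 0.272 and 0.138 CPM in the deep layer, and Oas2 at 1.51, 1.11 and 0.843 CPM and 0.509, 0.785 and 0.578 CPM. Oasl2 did not pass, at 1.65, 1.79, 1.94 and 1.56 CPM against 0.817, 1.01, 0.671 and 1.53 CPM after cbx (0.79, SE 0.34, adjusted p = 0.0860). After saline it was at 1.91, 1.55 and 0.685 CPM and 1.84, 0.816 and 0.689 CPM, and these libraries overlapped.

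The guanylate-binding proteins, GTPases that attack the membranes of intracellular pathogens, were all higher in the superficial layer after cbx. Gbp2 was at 1.62, 1.54, 1.34 and 2.38 CPM in superficial and 0.503, 0.273, 0.408 and 0.177 CPM in deep pools. Gbp3 was at 1.95, 3.73, 3.70 and 4.24 CPM and 1.42, 1.53, 1.78 and 1.94 CPM (1.04, SE 0.27, edgeR adjusted p = 0.00518). Gbp7 overlapped, at 5.37, 8.16, 6.46 and 8.77 CPM and 4.59, 4.18, 4.99 and 5.42 CPM (0.59, SE 0.19, adjusted p = 0.0217), and its call was lost in 5 of 18 alternatives. In saline superficial pools 1 to 3 these genes were at 1.54, 1.52 and 1.00 CPM (Gbp2), 3.14, 3.48 and 1.79 CPM (Gbp3) and 5.54, 6.27 and 4.61 CPM (Gbp7). In the saline deep pools Gbp3 was at 2.61, 2.18 and 1.24 CPM and Gbp7 at 5.82, 6.22 and 3.22 CPM, both overlapping the superficial values.

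Among the sensors, Ddx58 (RIG-I), which detects viral RNA, was at 5.34, 5.09, 6.31 and 5.60 CPM in cbx superficial and 3.18, 3.79, 4.26 and 3.83 CPM in cbx deep pools (0.57, SE 0.15, edgeR adjusted p = 0.00612). After saline it was at 6.20, 5.44 and 5.11 CPM and 5.82, 3.66 and 4.46 CPM, and the layers overlapped. Lgals3bp differed between the layers after cbx by 0.73 (SE 0.11, adjusted p = 4.2e-05), with values given above. The immunoproteasome subunits did not pass in any comparison. Psmb8 was at 2.38, 2.73, 3.11 and 1.99 CPM in cbx superficial, 3.08, 1.67, 2.33 and 2.504 CPM in cbx deep, 2.34, 2.32 and 2.48 CPM in saline superficial and 3.12, 2.33 and 3.03 CPM in saline deep pools. Psmb9 was at 1.31, 2.53, 2.51 and 2.66 CPM, 2.16, 1.42, 1.75 and 1.97 CPM, 1.91, 1.81 and 1.79 CPM and 1.56, 2.48 and 2.04 CPM in the same order of groups.

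With the pool as a block, 3 more members passed between the layers after cbx: Ifit3b (edgeR adjusted p = 0.0172), Oasl2 (0.0270) and Rtp4 (0.0235). Cell type markers differed between the layers as well. Meningeal fibroblast markers were called higher in the superficial layer for 12 of 13 genes after saline and 13 of 13 after cbx, and border macrophage markers for 8 of 8 in each. Their summed levels were 83.0 to 99.4 and 8.15 to 10.7 CPM in saline deep, and 53.6 to 71.1 and 6.19 to 10.4 CPM in cbx deep libraries, beside the superficial sums given above. Neutrophil and monocyte markers passed for 0 of 6 tested genes after saline and were higher for 5 of 6 after cbx, and red blood cell markers passed for 0 of 7 after saline and were higher for 6 of 7 after cbx. Microglial markers were lower in the superficial layer for 13 of 14 after saline, and after cbx 7 were lower and 1 was higher. The part of these cells in the members' layer differences was not tested.

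**Figure D5:**
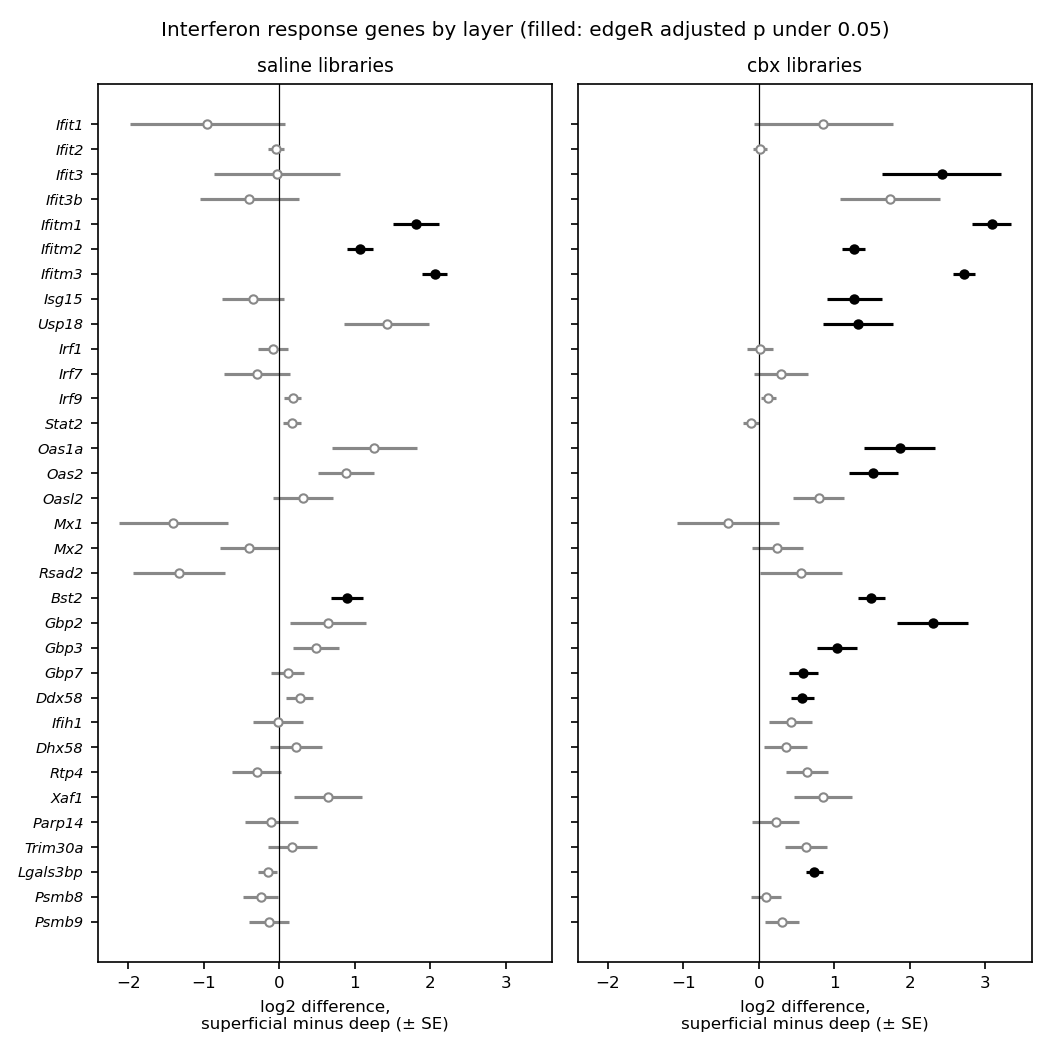
Log2 difference of the superficial against the deep layer with its SE for each of 33 members after saline and after cbx; filled points passed at an adjusted p under 0.05. After saline 4 members passed and after cbx 14, all above 0.

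Whether cbx acted differently in the layers was tested as an interaction. None of the 33 members passed, nor did any of the 20330 genes (0%), by edgeR's quasi-likelihood test. At an unadjusted p under 0.05 there were 9 members, against 8.36% of all genes, and DESeq2 called 1 member. That member was Lgals3bp, whose cbx difference was 0.89 higher in the superficial than in the deep layer (SE 0.17, edgeR adjusted p = 0.132, DESeq2 adjusted p = 0.00356). With the pool as a block its edgeR adjusted p was 0.0232. The larger number of layer calls after cbx than after saline is therefore not a shown difference between the treatments by this test. The interaction was positive for 30 of 33 members (all genes 50.4%), with a median of 0.55 that was 0.27 without saline pool 1. It uses all 14 libraries, and the cbx and layer comparisons share libraries with it and with each other.

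Other genes of the pathway were counted list by list. After cbx, 0 of 6 receptors, 0 of 8 inhibitors of the signal, 0 of 46 tested further interferon-stimulated genes and 0 of 13 genes of MHC class I and antigen loading passed in either layer. Between cbx and saline, 4.33% of all genes tested were called in the superficial and 1.83% in the deep layer. Counts of 0 or 1 in lists of this size lie near these shares. Of 19 tested sensors and adaptors upstream of interferon, 1 rose, and it was the same gene in each layer. Irf3, the constitutive factor that starts interferon transcription when sensors fire, was at 15.6, 14.3 and 15.1 CPM in saline superficial and 24.5, 19.2, 19.1 and 21.9 CPM in cbx superficial pools. In the deep layer it was at 12.8, 13.9 and 11.5 CPM after saline and 17.5, 20.9, 18.1 and 18.1 CPM after cbx. No cbx library overlapped a saline library of its layer. The differences were 0.50 (SE 0.10) and 0.55 (SE 0.10), with edgeR adjusted p = 0.0121 and 0.0109. The calls were lost in 4 and 3 of 17 alternatives, among them both layers without saline pool 1 and cbx pool 4 (adjusted p = 0.108 and 0.141), while the differences stayed between 0.42 and 0.61. Exons of Bcl2l12 on the opposite strand cover 2.56% of the exon bases of Irf3.

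The further interferon-stimulated genes leaned as the members did, with a median cbx difference of 0.32 in the superficial layer (39 of 46 positive) and -0.23 in the deep layer (31 of 46 negative). Of all genes, 51.5% were positive in each layer. Saline deep pool 1 was the highest of its group for 26 of the 46 (all genes 36.2%). The deep median of this list was not computed without that library. Between the layers after saline, 6 of the 46 were higher (all genes 9.67%) and 1 was lower, with Gbp4 (3.53, edgeR adjusted p = 0.00206), Samd9l (1.04, 0.0127) and Ifi27 (0.63, 0.0166) leading. After cbx 25 were higher (all genes 18.1%) and 1 was lower, led by Ifi27 (1.07, 1.6e-05), Lgals9 (0.73, 2.2e-05) and Parp12 (0.72, 6.0e-05).

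Receptors, inhibitors, sensors and antigen-loading genes were also compared between the layers, where 18.4% of all genes were called after saline (9.67% higher) and 32.2% after cbx (18.1% higher). Of the 6 receptors, 2 were higher and 1 lower in the superficial layer after saline, and 4 higher and 1 lower after cbx. Ifnar2, a chain of the type I receptor, was higher by 0.41 and 0.59, Il10rb, a chain of the type III receptor, by 0.72 and 0.69, and Ifngr2, a chain of the type II receptor, differed by -0.33 and -0.29. After cbx 3 of 8 inhibitors were higher, Ptpn2 (0.41), Ptpn1 (0.27) and Socs3 (0.64). Of the 19 sensors and adaptors, 1 was higher after saline, Ikbke (1.30), and 6 were higher and 1 lower after cbx, led by Ikbke (1.142), Trim25 (0.73) and Irf5 (0.63). Of the 13 genes of MHC class I and antigen loading, 2 were higher (H2-D1, 0.33, and H2-Q4, 0.52) and 1 lower (Psme1, -0.25) after saline, and 7 were higher and 0 lower after cbx, led by H2-D1 (0.39), Tapbp (0.46) and B2m (0.51).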

How the data were processed

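Poly-A RNA of 14 libraries was sequenced as paired 150-base reads. Tools named by the submitters' processing notes are STAR 2.7.9d, Subread 2.0.1 with featureCounts, SAMtools 1.14 and FastQC 0.11.9. Of the builds named there, GRCm39 and mm10, neither has a stated role. Annotation and strandedness were not given in the sources used here, and reads of overlapping or antisense genes may be mixed. The authors deposited raw read counts per Ensembl gene ID, 1 table per library, with 32004952 to 48776827 counts each. This depth leaves the 12 members under 1 CPM with few reads, and limits from 0 counts cover counting error only.

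Symbols were matched for 52083 of 55359 IDs (98.7% of counts). Exon lengths and shared sequence came from GENCODE M21, and promoters from RefSeq (GRCm38.p6). Counts were tested with edgeR 4.0.16 in R 4.3.3: filterByExpr by group, TMM factors, a robust quasi-likelihood fit of 4 group means to all 14 libraries (10 residual degrees of freedom), and Benjamini-Hochberg adjustment over 20330 genes with a threshold of 0.05. CPM values use the TMM factors. The test was checked on simulated data. Alternatives were median-of-ratios factors, no filter, a filter of 1 CPM in 3 libraries, DESeq2 1.42.0, limma-voom (limma 3.58.1), fits to the compared groups alone, leaving out each library, and a replicate block. Leaving out saline pool 1, alone or with cbx pool 4, was added after the data were seen.

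Group and replicate numbers come from the labels. Same-numbered libraries of the layers of 1 treatment deviated together, at correlations of 0.182 to 0.394 in 7 of 7 pairs at a mean of at least 1 CPM. This cutoff was set after the data were seen, and over all tested genes the correlations were 0.00501 to 0.180. Same-numbered libraries of different treatments did not deviate together (-0.276 to -0.0167). The pool was therefore the block in an alternative fit of the layer comparisons and the interaction. The main tests had no block and treated same-numbered libraries as independent. No library was a second copy of another: for the 18 within-group pairs, chi-square per gene was 7.35 to 48.6.

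The members and gene lists were chosen with earlier results of these data known. Values in every library are given for members that passed in any comparison, the most abundant member of each role, members whose cbx and saline libraries do not overlap, and members with 1 library far from its group. Other members are given by counts and ranges, and up to 3 genes are named per pathway list and comparison, by smallest adjusted p. Markers of lymphocytes (9 genes, summed level 3.09 to 7.34 CPM per library), endothelial cells (10 genes, 203 to 444 CPM), pericytes and smooth muscle (7 genes, 147 to 493 CPM), red blood cells (7 genes, 127 to 390 CPM) and astrocytes (8 genes, 1375 to 2962 CPM) were also summed. The list of receptor kinases and their transcription factors is not reported here.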

Additional observations from a re-analysis of the deposited data

Results flagged for a closer look

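In groups of 4 libraries, a library was set aside for a second look when its gap to the nearest other library, divided by the group's range, exceeded Dixon's critical value. This was checked in 68 groups (34 members in both cbx groups), and 3 exceeded it, where chance gives about 1 in 20. Ifit2 was at 16.9 CPM in cbx superficial pool 4, above the 14.6 to 14.8 CPM of the other pools. Ifitm1 was at 0.491 CPM in cbx deep pool 2, below the 0.825 to 0.880 CPM of the others. Psmb9 was at 1.31 CPM in cbx superficial pool 1, below the 2.51 to 2.66 CPM of the others. Without cbx deep pool 2, Ifitm1 kept its call between the layers after cbx, and Ifit2 and Psmb9 passed in no comparison.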

How the results depend on the processing

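In the superficial layer 1 member passed between cbx and saline, 3 with DESeq2, 2 with limma-voom, 2 with limma-voom and the pool as a random block, 2 without a filter on low counts, 0 without saline pool 1 and cbx pool 4, and 0 to 1 with 1 library left out. In the deep layer 1 passed, 2 with DESeq2, 0 with limma-voom, 0 with limma-voom and the pool as a random block, 4 without a filter, 0 with the replicate block, 0 without saline pool 1, 0 without it and cbx pool 4, and 0 to 1 with 1 library left out. For the interaction 0 passed, 1 with DESeq2, 2 without a filter, 1 with the replicate block (pool), and 0 to 1 with 1 library left out. The median of the members in the deep cbx comparison was -0.19, between -0.31 and 0.020 with 1 library left out and 0.020 without saline pool 1. The median of the saline layer comparison was 0.11, between -0.070 and 0.39 with 1 library left out. In the deep layer the cbx difference turned positive without saline deep pool 1 for Mx1 (0.084) and Rsad2 (0.011), without saline pool 1 in both layers for Mx1 (0.084) and Rsad2 (0.011), and without saline pool 1 and cbx pool 4 for Mx1 (0.14), Gbp2 (0.14) and Ifit3 (0.068). With 1 library left out the difference ran from -1.94 to 0.084 for Mx1 and from -2.05 to 0.011 for Rsad2. The cause of these changes was not tested. Between the layers 4 to 6 members passed after saline and 11 to 15 after cbx with 1 library left out. Besides these, the replicate block added Usp18 between the layers after saline and Ifit3b, Oasl2 and Rtp4 after cbx, and changed no other call of a member. For the cbx comparisons its numbers are shared by name only. No scaling alternative turned the direction of a called member. Members with few reads had the widest errors, with an SE of 0.97 for Ifit1 and 0.10 for Ifit2 in the superficial cbx comparison.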
